A study of Mus musculus with 2 samples.

Results

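Germ cells use a set of genes that most other cells keep silent, and DNA methylation of their promoters is a known part of that silencing. The 9 genes described here, Dazl, Ddx4, Mael, Tdrd1, Sycp1, Sycp3, Hormad1, Brdt and Stra8, were chosen by name and by fixed regions of GRCm38 that hold each gene with its flanks; the rule uses no measured value, although the choice of genes was made with earlier results of these data known. Within the 9 regions, 65 to 169 kb long, the 2 deposited tables listed 567 sites, of which 337 were CCGG sites out of 801723 CCGG sites in all. The readout was methylRAD sequencing of F9 cells, an embryonal carcinoma line from a mouse teratocarcinoma. FspEI, an enzyme that cuts next to methylated cytosines, releases short fragments from the genome. The count of reads at a CCGG site (a CpG) or at a CCAGG or CCTGG site (no CpG) rises with methylation there. One library came from undifferentiated F9 cells and 1 from F9 cells at day 4 of differentiation, induced in low-attachment dishes with 1 µM retinoic acid. The library names of both carry the word untreated, whose meaning is not given in the sources used here. Both groups are the same cell line with no gene altered, and each is 1 library with no replicate.

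The undifferentiated library held 20550450 counts, 16687588 of them at CCGG sites, and the differentiated library held 21291239 counts, 15705436 of them at CCGG sites. The tables list a site only from 5 counts upwards, so an unlisted site had 0 to 4 counts and cannot be called unmethylated. Each count pools all cells of a culture, so that methylation in fewer cells and methylation of fewer alleles in each cell cannot be told apart. Tests on these counts set 1 library against the other and say nothing of the spread between cultures, and every interval below covers counting error only. The tables hold no expression values, so whether the 9 genes were silent in these cells was not tested.

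Most CpG-rich promoters stay free of DNA methylation in every tissue. Many germline promoters are rich in CpG and still gain methylation in the embryo around implantation. Many of them hold the E-box CACGTG, which MGA and MAX bind, or a site of E2F6, all of them parts of a repressive Polycomb complex known to act on meiotic genes.

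The promoter sequences below run from 250 bases before to 30 bases after the gene start, 5′ to 3′ on the gene's strand, as given by RefSeq for GRCm38.p6. All 9 genes were found in the RefSeq promoter table. Capitals mark a CCGG listed as a methylated site in at least 1 library, and a CCGG in lower case was unlisted in both. The listed CCGG at +47 of Ddx4 and at +34 of Mael lie beyond the printed bases. Ddx4 is shown because its promoter, with that of Hormad1, held the most CCGG, Sycp1 because every CCGG of its promoter was listed in both libraries, Mael because listed and unlisted CCGG stand in 1 promoter, Dazl for a single listed CCGG on the gene start, and Stra8 because its promoter held no CCGG. They lie at chr13:112652281-112652560 (Ddx4, minus strand), chr3:102936071-102936350 (Sycp1, minus strand), chr1:166238715-166238994 (Mael, minus strand), chr17:50293591-50293870 (Dazl, minus strand) and chr6:34920698-34920977 (Stra8, plus strand).
Ddx4: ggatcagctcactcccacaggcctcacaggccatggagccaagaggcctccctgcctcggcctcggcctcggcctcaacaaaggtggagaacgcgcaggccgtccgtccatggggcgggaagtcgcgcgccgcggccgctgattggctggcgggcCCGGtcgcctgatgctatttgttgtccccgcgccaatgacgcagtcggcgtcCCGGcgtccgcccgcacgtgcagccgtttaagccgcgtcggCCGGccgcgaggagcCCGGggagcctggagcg
Sycp1: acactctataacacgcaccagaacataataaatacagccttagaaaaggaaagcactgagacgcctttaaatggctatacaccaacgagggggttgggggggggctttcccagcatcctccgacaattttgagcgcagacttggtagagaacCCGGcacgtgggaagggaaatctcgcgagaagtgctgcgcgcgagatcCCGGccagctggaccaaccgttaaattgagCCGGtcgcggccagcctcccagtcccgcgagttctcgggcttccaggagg
Mael: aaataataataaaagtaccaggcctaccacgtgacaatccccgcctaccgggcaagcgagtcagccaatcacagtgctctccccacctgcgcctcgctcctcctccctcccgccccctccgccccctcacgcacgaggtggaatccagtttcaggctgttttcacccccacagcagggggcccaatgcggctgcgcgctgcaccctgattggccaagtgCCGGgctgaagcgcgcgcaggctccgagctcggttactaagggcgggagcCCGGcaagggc
Dazl: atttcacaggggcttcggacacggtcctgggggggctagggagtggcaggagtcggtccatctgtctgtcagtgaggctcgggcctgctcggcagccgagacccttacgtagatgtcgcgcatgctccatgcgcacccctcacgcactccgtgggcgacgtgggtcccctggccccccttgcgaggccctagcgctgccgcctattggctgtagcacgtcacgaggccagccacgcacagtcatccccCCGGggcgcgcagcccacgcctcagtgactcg
Stra8: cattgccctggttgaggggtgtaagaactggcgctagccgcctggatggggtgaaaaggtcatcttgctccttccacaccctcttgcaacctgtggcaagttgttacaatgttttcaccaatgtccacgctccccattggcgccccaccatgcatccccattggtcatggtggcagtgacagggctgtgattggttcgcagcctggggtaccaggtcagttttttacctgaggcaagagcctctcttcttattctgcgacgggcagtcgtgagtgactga

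A larger share of CCGG was listed as methylated in the 9 promoters than in promoters in general. In the RefSeq windows of 300 bases, from 250 before to 50 after the start, the 9 genes had 23 CCGG, of which the undifferentiated library listed 17 (73.9%) and the differentiated library 16 (69.6%). At 10 counts or more these shares were 47.8% and 56.5%, so their order turned. Over the 36595 promoter CCGG of all 27025 genes the listed shares were 9.5% and 11%. Among the 11883 genes with at least 10 CpG in the window, the lowest number in any of the 9, they were 3.96% and 6.02%. Of the 8 genes with a promoter CCGG, 7 had a listed one in each library, compared with 19.8% and 22.5% of all genes with a promoter CCGG. Among such genes with at least 10 CpG in the window the shares were 8.31% and 13.1%. These shares describe the listed sites and were not tested.

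**Figure D1:**
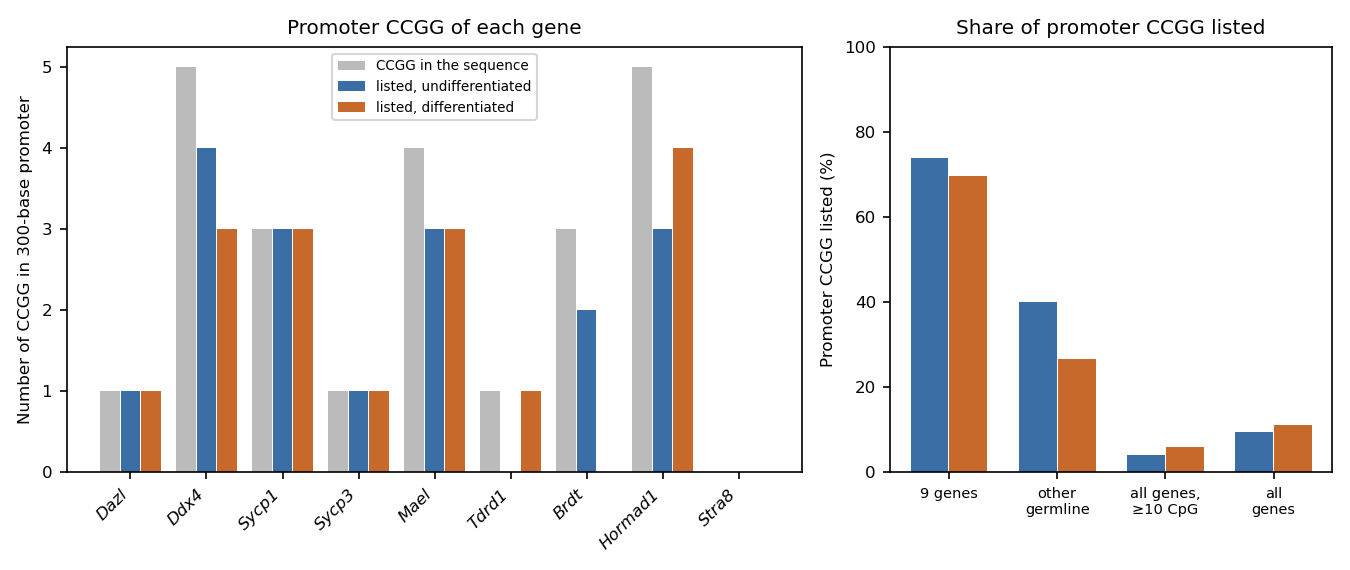
Left, for each of the 9 genes, the number of CCGG in the 300-base promoter (grey) and of those listed in the undifferentiated (blue) and differentiated (orange) library. Right, the percentage of promoter CCGG listed for the 9 genes (73.9% and 69.6%), the other germline genes, all genes with at least 10 CpG in the promoter and all genes (9.5% and 11%).

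Among the genes of early germ cells and of piRNA silencing, Ddx4, the mouse homologue of the fly RNA helicase Vasa, had 5 promoter CCGG. All 5 were listed in at least 1 library, 4 before and 3 after differentiation. By distance from the start they had 5 and 12 counts (undifferentiated, then differentiated) at -92, 9 and unlisted at -40, unlisted and 11 at +1, 11 and unlisted at +16, and 12 and 16 at +47. None had more than 16 counts, and none was called different between the libraries. The sites at +1 and +16 lie 15 bp apart, near enough to share reads, so they may not be independent measurements. Dazl, an RNA-binding protein that germ cells need to enter gametogenesis, had 1 promoter CCGG, which covers the start and had 7 and 10 counts. Mael, a protein of the piRNA pathway that holds transposons silent, had 4 promoter CCGG. The site at -28 had 32 and 18 counts, and the sites at +22 and +34 both had 19 and 14. These last 2 lie 12 bp apart and share reads, as sites within 16 bp can, so they are not independent measurements. The CCGG at -200 of Mael was unlisted in both. Tdrd1, a Tudor protein that binds PIWI proteins, had a single promoter CCGG, at -158, unlisted in the undifferentiated and with 13 counts in the differentiated library.

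The genes of meiotic chromosome structure also had listed promoter sites. Sycp1, the transverse filament of the synaptonemal complex, had 57 and 40 counts at -95, 7 and 9 at -47, and 13 and 26 at -17. Sycp3, a component of the axial element, had 17 and 23 counts at its single promoter CCGG, at +37. Hormad1, a HORMA-domain protein of unsynapsed chromosome axes, had 5 promoter CCGG. They had 18 and 30 counts at -236, 13 and 6 at -176, 18 and 13 at -119, no listing in either library at -10, and unlisted and 6 at +27. Brdt, the testis-specific BET bromodomain protein, had the thinnest coverage of the genes with a CCGG. It had 6 and 5 counts at +28 and +39 in the undifferentiated library and no promoter CCGG listed in the differentiated library. The Brdt sites at +28 and +39 lie within 16 bp of each other and can share reads. Stra8, a retinoic acid-induced gene that germ cells need to enter meiosis, had 0 CCGG and 10 CpG in its window, the fewest of the 9.

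The promoters varied in sequence. The CpG count of the 300-base window ranged from 10 in Stra8 to 38 in Ddx4, with a median of 23 compared with 7 over all genes and 22 over genes with at least 10 CpG. The median GC content was 64.7%, compared with 52.7% over all genes and 62.7% over genes with at least 10 CpG. The E-box CACGTG, which reads the same on both strands, stood in 7 of the 9 windows (all except Dazl and Stra8) in 7.24% of all windows and in 11.1% of those with at least 10 CpG. Sycp3 and Hormad1 held it at 2 places each. The E2F-type motif GGCGGGA, searched on both strands as GGCGGGA or TCCCGCC with no match overlapping an E-box in these genes, stood in 3 of the 9, Ddx4, Mael and Hormad1, in 11.4% of all windows and in 23.4% of those with at least 10 CpG. All 3 also held CACGTG, and both motifs stood together in 1.23% of all windows and 2.68% of those with at least 10 CpG. A match gives letters in the window and does not show binding.

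Within 1 kb on either side of the start, 64 CCGG sites of the 9 genes were listed, 39 (60.9%) of them in both libraries, compared with 75.5% of the sites farther away in the 9 regions and 69.9% of all CCGG sites. The median over the 9 genes was 8 listed sites, with 91 counts before and 109 after differentiation, whereas the median of all genes was 1 site, with 0 counts in each library, and that of genes with at least 10 CpG was 0 sites. The other germline genes described last had medians of 48.5 and 51.5 counts. The listed sites near the start had fewer counts than those farther away, with medians of 12 and 14 counts (undifferentiated, then differentiated) within 1 kb and 18 and 19 beyond it.

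**Figure D2:**
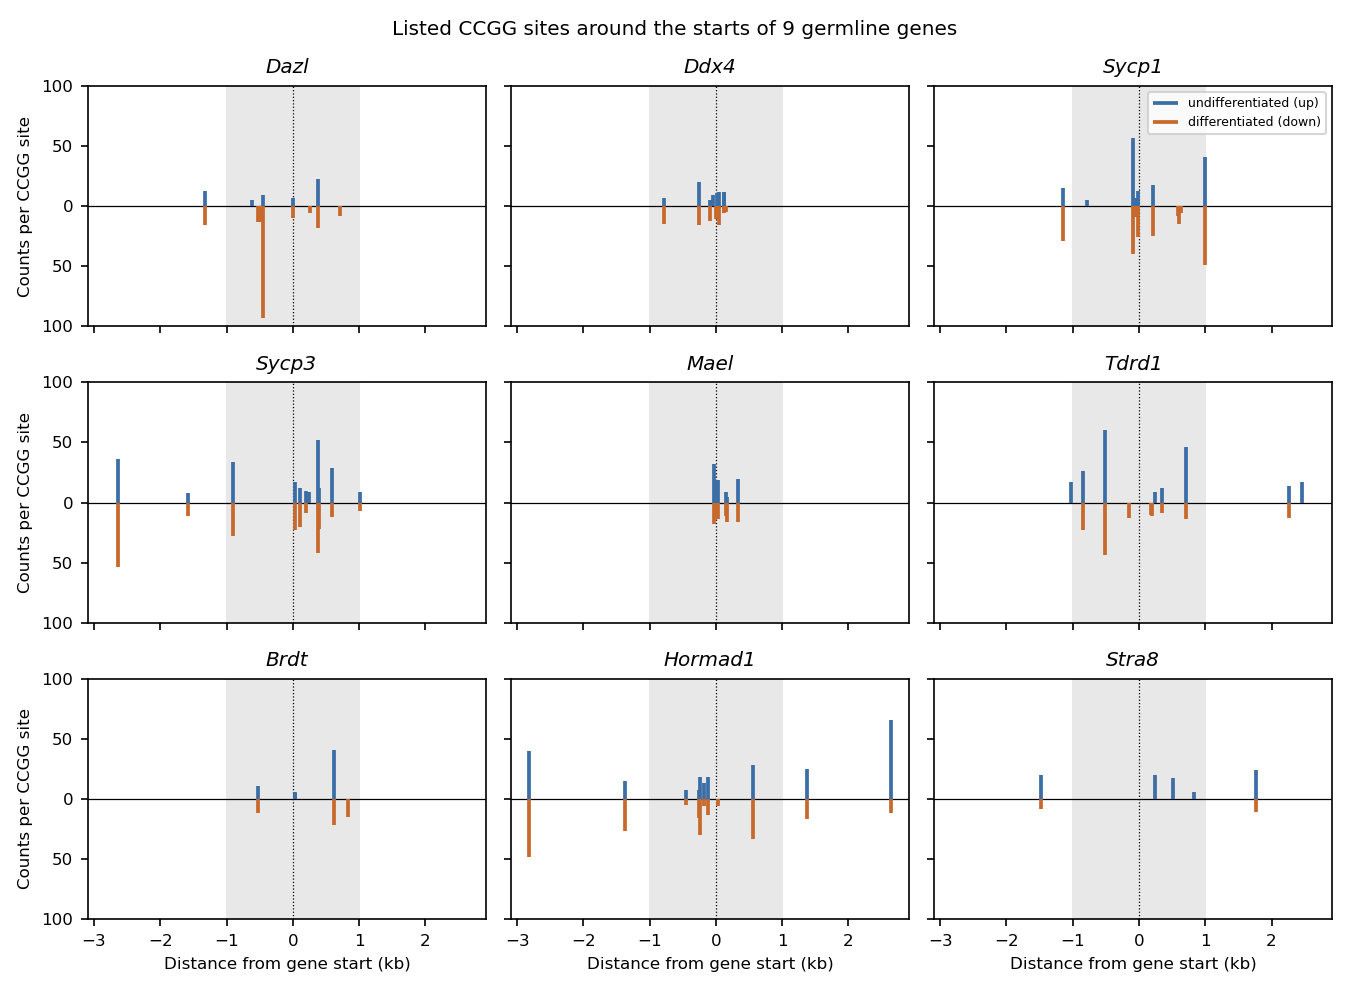
Counts of listed CCGG sites (vertical axis) by distance from the gene start in kb, positive along the gene, up to 3 kb, with undifferentiated counts drawn upwards and differentiated counts downwards; grey marks 1 kb on either side. A single Dazl site reaches 93 counts in the differentiated library, and the 3 Stra8 sites within the grey band have counts in the undifferentiated library only.

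The promoter-proximal counts were then compared between the libraries, to see which of the 9 genes differed on differentiation. Unlisted sites were given 4 counts, the most that the listing permits, and counts within 1 kb of the start were tested against the rest of the CCGG total by Fisher's exact test, adjusted over 13084 promoters. Dazl was called higher and Stra8 lower in the differentiated library, at an adjusted p under 0.05, and the other 7 were not called. Over all promoters tested, 11.1% were called higher and 9.8% lower, so 1 gene of 9 in each direction is close to that background. The median log2 ratio was -0.04 over the 9 genes and 0.14 over all promoters tested.

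Within 1 kb of its start Dazl had 44 counts in undifferentiated and 161 in differentiated cells. With unlisted sites at 4 counts the log2 ratio was 1.55 (95% interval 1.11 to 2.00), with an adjusted p of 4.96e-11 by Fisher's exact test. Most of this rise came from 1 CCGG, at position 50294065 of chromosome 17, 445 bp upstream of the start. Its counts were 9 and 93, so that the log2 ratio reached 3.46, with an adjusted p of 4.76e-16 by Fisher's exact test. A CCTGG site 5 bp away, at position 50294060, had the same 9 and 93 counts and shares its reads. The next CCGG sites upstream, at positions 50294111 and 50294149, were both unlisted in the undifferentiated library and had 13 counts each after differentiation, which taken singly was not called. Without the highest site the log2 ratio of the Dazl promoter was 0.585, with an adjusted p of 0.136 by Fisher's exact test, and the call was lost. Inside the gene, the site at the start had 7 and 10 counts, that at +258 was unlisted and had 6, that at +380 had 23 and 18, and that at +712 was unlisted and had 8. The site at -616 had 5 counts and was then unlisted. None of these 5 was called.

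At Stra8 the difference ran the other way. Its 3 listed CCGG sites within 1 kb all lay inside the gene, at positions 34921189, 34921462 and 34921774 of chromosome 6, 241, 514 and 826 bp after the start. They had 20, 17 and 6 counts in the undifferentiated library, and none was listed in the differentiated library. With 4 counts given to each unlisted site the sum went from 43 to 12, so that the promoter was at least 3.37-fold lower, a log2 ratio of -1.75 or below (Fisher's exact test, adjusted p 9.87e-04). The first and second of the 3 sites were also called singly (Fisher's exact test, adjusted p 0.0118 and 0.0362). Without the highest site the adjusted p was 0.0694 by Fisher's exact test and the call was lost, with a log2 ratio of -1.44. The nearest site upstream, at position 34919464, 1484 bp before the start, had 20 and 8 counts and was not called. A CCTGG site 9 bp from it, at position 34919473, which can share its reads, had 20 and 6 counts and was called lower relative to the CCAGG and CCTGG total (Fisher's exact test, adjusted p 0.00842).

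The other 7 promoters had totals within 1 kb that differed less. Sycp1 had 141 and 178 counts, a log2 ratio of 0.34 (95% interval 0.02 to 0.66), with an adjusted p of 0.116 by Fisher's exact test. Sycp1 was called higher without its highest site (log2 ratio 0.65; Fisher's exact test, adjusted p 0.00731) and with 2 kb on each side (0.42, adjusted p 0.0284). One Sycp1 site was called singly, at position 102935502, 598 bp inside the gene, unlisted and then 15 counts, and Brdt had such a site at position 107332023, 829 bp inside, also unlisted and then 15. Tdrd1 had 153 and 124 counts and a log2 ratio of -0.28 (95% interval -0.62 to 0.06). Its promoter held 1 called site, at position 56826914, 705 bp inside the gene, which fell from 46 to 14 counts (Fisher's exact test, adjusted p 0.00117). Hormad1 had 91 and 109 counts, Mael 104 and 89, Ddx4 88 and 87, Sycp3 175 and 156, and Brdt 63 and 49. For these 5 the log2 ratios lay between -0.15 (Brdt, 95% interval -0.68 to 0.39) and 0.29 (Hormad1, 95% interval -0.12 to 0.70), and a difference of the size seen at Dazl or Stra8 lay outside each interval.

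Over the whole regions, 4 of the 9 loci had more CCGG counts in the differentiated library at an adjusted p under 0.05, and none had fewer. The same test called 22.7% of 100 kb windows of the genome higher and 13.4% lower, adjusted over those windows and the 9 loci together. The median log2 ratio was 0.10 over the loci and 0.04 over the windows. Dazl went from 317 to 517 counts, over 18 and 20 listed sites, a log2 ratio of 0.73 (95% interval 0.53 to 0.93; Fisher's exact test, adjusted p 1.58e-11). Ddx4 had 738 and 887 counts (log2 ratio 0.36, 0.22 to 0.50), Sycp1 566 and 698 (0.35, 0.20 to 0.51), and Brdt 477 and 580 (0.36, 0.19 to 0.53). Their adjusted p values by Fisher's exact test were 6.75e-06, 1.03e-04 and 3.23e-04. Among the 9800 genome windows with summed counts in the range of the loci, the central 90% of log2 ratios ran from -0.29 to 0.35, and 25.3% were called higher, so that all 4 called loci lay above this range, Ddx4, Sycp1 and Brdt only just.

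The remaining loci were not called. Tdrd1 had 1406 and 1403 counts over its region, Stra8 1026 and 946, Sycp3 783 and 704, Hormad1 636 and 567, and Mael 463 and 396. Their log2 ratios ran from -0.11 (Mael, 95% interval -0.30 to 0.09) to 0.10 (Tdrd1, 95% interval -0.006 to 0.21). Which of these loci were called depended on the scaling, and Tdrd1 also changed sign. When the typical CCGG site was set equal in the libraries, a shift of 0.16 on the log2 scale, 3 loci were called higher and Sycp3, Mael, Hormad1 and Stra8 were called lower, as were 7.56% and 33.3% of genome windows on that scale. With the divisors behind the deposited RPM values, a shift of 0.23, Dazl alone was called higher and 5 loci lower, beside 4.21% and 45.6% of windows. At sites listed in both libraries Tdrd1 was called higher instead (log2 ratio 0.16; Fisher's exact test, adjusted p 0.0153), where 31.5% of windows were called higher and 7.39% lower.

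**Figure D3:**
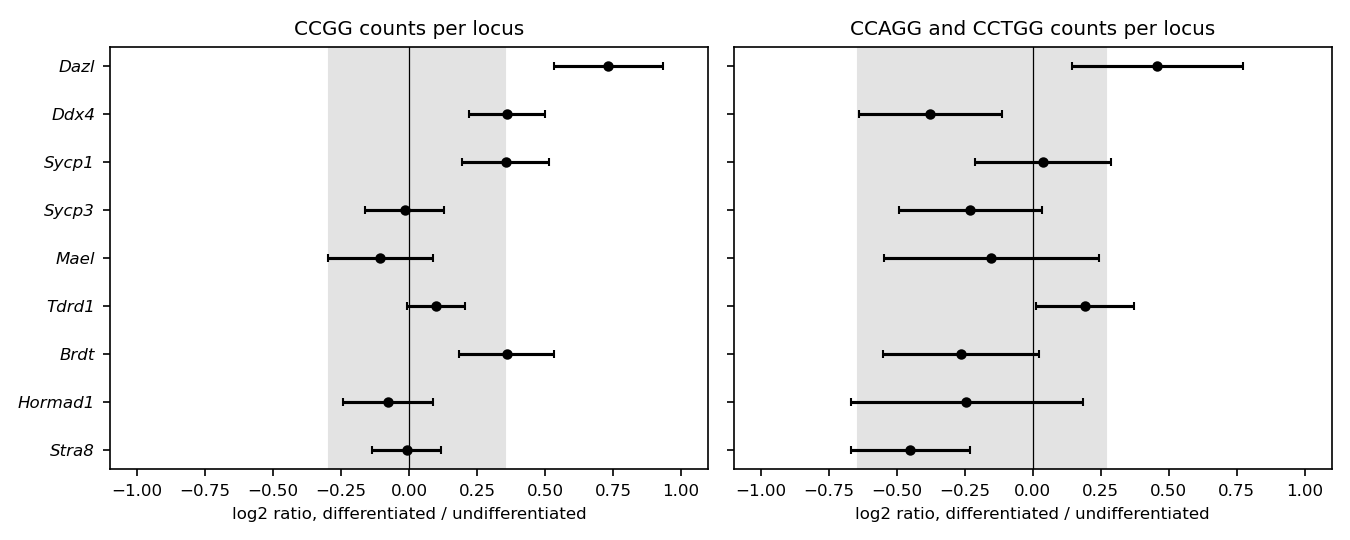
log2 ratio of differentiated to undifferentiated counts for each locus, CCGG on the left and CCAGG with CCTGG on the right, with 95% intervals from counting error; grey spans the central 90% of genome windows with similar counts. Dazl lies to the right of the grey band in both panels, at 0.73 and 0.46. The right-hand value includes the CCTGG at position 50294060, which shares its reads with a CCGG counted on the left. The panels are therefore not independent for Dazl. When only sites with no CCGG site within 100 bp were kept, the right-hand ratio of Dazl was -0.15.

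The counts of a region were also split into the gene and its flanks. In the Dazl region most counts lay upstream, where they went from 230 to 431 over 18 sites, while the gene itself held 4 listed sites with 30 and 42 counts. Restricted to the gene, less the 25 kb flanks, the log2 ratio of Dazl was 0.23 and not called (Fisher's exact test, adjusted p 0.636). With so few counts, and with unlisted sites at 4, the lack of a call does not show that the gene differed from its flank. In the Stra8 region the gene went from 363 to 235 counts, while the upstream flank had 412 and 464 and the downstream flank 251 and 247. Restricted to the gene in the same way, the log2 ratio of Stra8 was -0.44 (Fisher's exact test, adjusted p 0.00119). Brdt had 335 and 332 counts within the gene and 27 and 90 in the downstream flank, and its log2 ratio over the gene was 0.09, not called. The flanks also hold parts of other protein-coding genes, among them Il31ra and Slc38a9 beside Ddx4 and Slc23a4 and Wdr91 beside Stra8, so that a locus total is not a value of 1 gene.

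**Figure D4:**
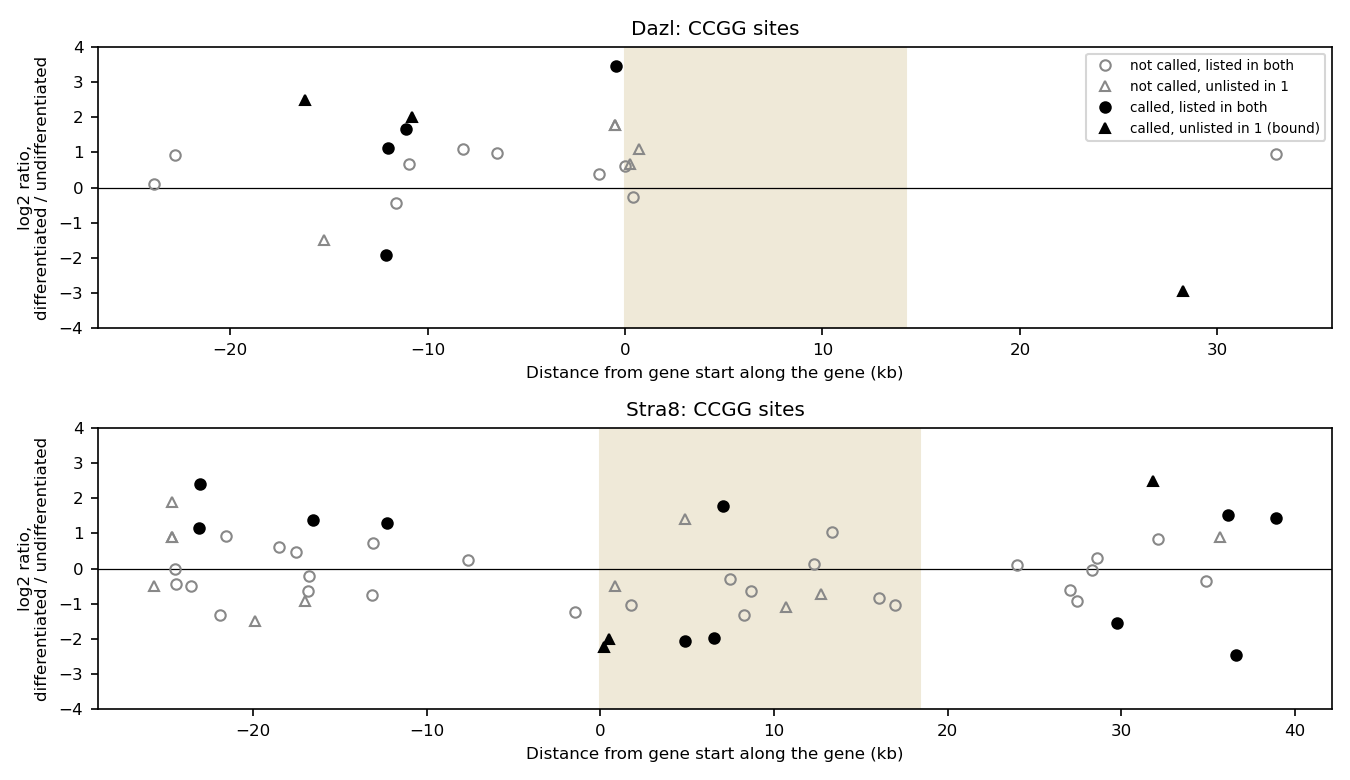
log2 ratio of each tested CCGG site in the Dazl (top) and Stra8 (bottom) regions by distance from the gene start in kb, with the gene shaded; filled symbols were called, and triangles were unlisted in 1 library, so that their value is a bound. The highest Dazl point, at 3.46, lies just upstream of the start, and the first 2 points inside Stra8, at -2.23 and -2.00, are called lower.

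Single sites of the regions were called where the adjusted p was under 0.05 and the levels differed at least 2-fold. Of 324 CCGG sites tested, 34 (10.5%) were higher and 30 (9.26%) lower in the differentiated library, beside 9.89% and 11.5% of the 763323 sites tested in the genome, so the shares in the regions were near those of the genome. The median log2 ratio was 0.11 in the regions and 0.025 over all tested sites. With the typical site set equal, 22 were called higher and 39 lower, beside 7.15% and 14.4% of all sites. With the RPM divisors the numbers were 21 and 42, beside 6.24% and 15.5%, and with unlisted sites as 0 they were 49 and 49, beside 15.4% and 19.8%. Tdrd1 had the most sites called lower, 10 of 63 tested, and 6 of these lay within the gene. Stra8 had the most called higher, 8 of 53.

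The most changed sites were scattered over genes and flanks. In Ddx4 the largest rise was inside the gene at position 112628058 of chromosome 13, from unlisted to 36 counts. Its log2 ratio was 3.26 with the unlisted site at 4 counts. The largest fall was in the upstream flank at position 112672154, from 21 counts to unlisted. In Sycp1, position 102951637 of chromosome 3 went from unlisted to 19 counts and position 102912768, in the gene, from 29 to 7. Sycp3 had both of its extremes in the downstream flank on chromosome 10, from 23 to 56 counts at position 88494032 and from 31 to 6 at position 88496832. Mael had a single called site, at position 166263840 of chromosome 1, from 23 counts to unlisted. In Tdrd1 on chromosome 19, position 56886663 beyond the gene went from 20 to 67 counts, and position 56846518 in the gene from 21 counts to unlisted. In Brdt on chromosome 5, position 107407431 beyond the gene went from unlisted to 35 counts, a log2 ratio of 3.22 with 4 counts when unlisted. Position 107378036 in the gene went from 44 to 9. Hormad1 had no site called higher, and its largest fall was in the gene, 2640 bp from the start at position 95562317 of chromosome 3, from 66 to 12 counts (log2 ratio -2.37; Fisher's exact test, adjusted p 2.23e-07). In Stra8, position 34952769 beyond the gene went from unlisted to 21 counts and position 34957561 from 29 to 5. The site of Dazl that fell most, position 50265374 of chromosome 17, lay beyond the gene and went from 33 counts to unlisted. With 4 counts when unlisted, the log2 ratio of that site was -2.96.

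The site with the highest summed count was called at Dazl and at no other locus. At Sycp1 and Sycp3 they lay at the promoter, 57 and 40 counts at position 102936195 and 52 and 42 at position 88459965, 378 bp into Sycp3. At Ddx4 position 112587943 had 52 and 59 counts, and at Mael position 166252758 had 53 and 70. Brdt had 40 and 64 counts at position 107317560, Hormad1 39 and 71 at position 95565977, Tdrd1 57 and 91 at position 56865224, and Stra8 48 and 86 at position 34899416. None of these 8 reached 2-fold, although those of Brdt, Hormad1, Tdrd1 and Stra8 were past the p threshold of Fisher's exact test (adjusted p 0.0371, 0.00658, 0.0118 and 0.00365), whereas the site of Dazl described above was called.

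CCAGG and CCTGG sites, which hold no CpG, were fewer over the 9 regions. The undifferentiated library listed 137, the differentiated library 184, and 91 were in both. Over the genome such sites numbered 314285 and 448204, so more were listed after differentiation there too. Of the 230 sites in the regions 39.6% were in both libraries, and of all such sites 34.1%. A site within 16 bp of a CCGG can share its reads, so its counts need not reflect methylation outside CpG. At Mael the CCTGG at position 166252751 had 53 and 70 counts, as had the CCGG 7 bp away. The locus totals below include sites of this kind. Scaled to the CCAGG and CCTGG total of each library, Dazl was called higher by Fisher's exact test, from 101 to 252 counts (log2 ratio 0.46, 95% interval 0.15 to 0.77, adjusted p 0.014). Ddx4, from 200 to 230 counts (log2 ratio -0.38), and Stra8, from 273 to 297 (log2 ratio -0.45), were called lower relative to that total, and Fisher's exact test gave them adjusted p of 0.0195 and 3.86e-04. In the genome 2.15% of windows were called higher and 28.7% lower on this scale. Most of the rise at Dazl lay at 1 site, the CCTGG at position 50294060 described above, with 9 and 93 counts. It shares its reads with the CCGG 5 bp away, so it is not a separate measurement. With sites more than 100 bp from any CCGG site, the Dazl counts were 50 and 80 with unlisted sites at 4. The log2 ratio of Dazl was then -0.15. At those sites Ddx4 (-0.998), Stra8 (-0.95) and Sycp3 (-0.66) were called lower, with adjusted p of 3.13e-05, 4.19e-09 and 0.00381 from Fisher's exact test, while 43.2% of genome windows were called lower and 0.525% higher there. Scaled to the CCGG total instead, 6 loci were called higher and none lower, and the direction of 6 of the 9 loci reversed. That scale moves every locus and window up by 0.62 (log2), and 58.4% of genome windows were called higher and 0.618% lower on it. Singly, 2 of 185 tested sites were called higher and 4 lower, compared with 1.16% and 4.43% of all such sites. One of the 4, a CCAGG at position 112652021 of chromosome 13, lies 289 bp inside Ddx4 and went from 20 counts to unlisted.

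Other germline genes from a list of 30 were read in the same way, and 26 were found in the promoter table (not Piwil2, Tex11, Dnd1 and Spo11). Of their 30 promoter CCGG, the undifferentiated library listed 12 (40.0%) and the differentiated library 8 (26.7%), between the values of the 9 genes and of all genes. Asz1 and Fkbp6, both of the piRNA pathway, had 2 of 2 promoter CCGG listed in both libraries, while Tdrd5 had 0 of 7 listed in either. CACGTG stood in 8 of the 26 windows and GGCGGGA in 3 (11.5%). Within 1 kb of the start, 25 genes could be tested, and 6 were called higher and 2 lower in the differentiated library. Dpep3 went from 85 to 161 counts (log2 ratio 1.01), Asz1 from 41 to 72 (0.90), Slc25a31 from 48 to 97 (0.80), the last with unlisted sites at 4 counts for its ratio, and Tuba3a, a testis tubulin, from 125 to 198 (0.75). Nanos2, a regulator of male germ cells, went from 57 to 21 counts (-1.35) and Meioc, which meiotic cells need in prophase, from 83 to 24 (-1.12, also with unlisted sites at 4). Their adjusted p values by Fisher's exact test ran from 5.81e-06 for Dpep3 to 0.0101 for Asz1. The 6 of 25 called higher were 24.0%, beside the 11.1% of all promoters given above, and the 2 called lower were 8.0%, beside 9.8%. These shares were not matched for counts, on which the reach of the test depends, and the difference between them was not tested. The median log2 ratio was 0.12, beside 0.14 over all promoters.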

How the data were processed

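MethylRAD counts from 2 libraries, 1 undifferentiated and 1 differentiated, were analysed. The authors deposited whole-number counts per site with the motif and alignment type; Bowtie2 2.3.3, FastQC 0.11.3 and GRCm38 are named per the submitters' processing notes, while read filters and duplicate handling are not given in the sources used here. The deposited RPM column exceeds 1000000 in sum, was treated as a score and gave a further scaling. Of the 8763 listed sites in RefSeq promoter windows, 98.85% had their motif at the listed position, which is the first base of the motif; distances from a start refer to it. The outermost start of each gene in the RefSeq promoter table was used; the gene spans of Ddx4, Tdrd1, Brdt and Stra8 begin further upstream. Levels are relative to the CCGG total. Unlisted sites counted as 4, and 50 positions with differing motifs were left out. Fisher's exact test, two-sided, with Benjamini-Hochberg adjustment was run over all CCGG sites and all promoters with at least 10 summed counts, and over all 100 kb windows with at least 50 plus the loci. Intervals of log2 ratios are exact binomial (95%). Scripts were tested on simulated data. Computations used pandas 2.3.3, scipy 1.17.1 and numpy 2.4.6 in Python 3.11.15. Named sites were, per locus, the highest summed count, the largest and smallest log2 ratio among called sites, and sites within 1 kb of the start (those not in the text are in the plot of counts by distance); other germline genes were named where called, at most 4 per direction, and Fkbp6 and Tdrd5 were named after their values were seen. Members and lists were chosen with earlier results of these data known. Alternatives concerned scaling, unlisted sites, region or promoter width, alignment type, highest sites, shared reads and minimum counts.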

Additional observations from a re-analysis of the deposited data

How the results depend on the processing

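With 1 library per state no result has a replicate check, and the low counts at promoters (often 5 to 20) allow only large differences to be called. The cause of each shift below was not tested. Of the 9 loci, 4 were called higher and 0 lower in CCGG counts. With median-ratio scaling 4 were lower, and with the RPM divisors 5 were lower and 1 higher, and less the 25 kb flanks 2 were higher and 1 lower. Tdrd1 (0.10) reversed to -0.056 and -0.13 under the 2 scalings, and Sycp3 (-0.016) to 0.067 at sites listed in both libraries, where 5 loci were higher, Tdrd1 added (0.16). For promoters, 1 was called higher and 1 lower. With 2 kb on each side and with unlisted sites as 0 (where Stra8 has no finite ratio) 2 were higher, in both cases Sycp1 added. Under the divisors 2 were lower, Tdrd1 added (-0.51), and without the highest site 0 were lower. Reversals among promoters that were not called were Ddx4 (-0.066 at 500 bp, -0.084 and -0.15 under the 2 scalings), Sycp3 (0.19 at 500 bp), Tdrd1 (0.60 at 500 bp), and without the highest site Sycp3 (0.028), Mael (0.067) and Brdt (0.52). For CCAGG and CCTGG, 1 locus was higher and 2 lower; beyond 100 bp from a CCGG site 0 were higher and 3 lower, Sycp3 added, with Dazl at -0.15 and Sycp1 at -0.16, and on the CCGG total 6 were higher and 0 lower, with Ddx4 at 0.24, Sycp3 0.39, Mael 0.46, Brdt 0.35, Hormad1 0.38 and Stra8 0.17. Single CCGG sites, 34 higher and 30 lower, were 22 and 39 under median-ratio scaling, 21 and 42 with the divisors, and 49 and 49 with unlisted sites as 0. Promoter CCGG listed, 73.9% undifferentiated and 69.6% differentiated, were 47.8% and 56.5% at 10 counts or more (all genes 6.41% and 6.07%) and 69.0% and 72.4% over every gene start, so the order of the libraries turned in both. No paired analysis was possible because each state has 1 library. The alternatives on shared reads, highest promoter sites and listed shares were chosen after seeing the data.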

Other observations

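Over genes with at least 10 CpG in the promoter window, leaving out the 9 genes and the other germline genes, promoters with CACGTG had 3.96% (undifferentiated) and 6.28% (differentiated) of their CCGG listed. With the germline genes included the shares were 4.52% and 6.73%, and promoters without CACGTG had 3.89% and 5.94%. Over all genes of any CpG number, promoters with CACGTG had 7.64% and 9.51% listed and those without it 9.7% and 11.1%. These shares are descriptions of listed sites and were not tested.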
